A study of Mus musculus with 6 samples.

Results

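YAP1 and TAZ, the product of Wwtr1, are transcriptional coactivators that bind no DNA themselves. The Hippo kinases hold them in the cytoplasm by phosphorylation, and in the nucleus they act mainly through the TEAD family of DNA-binding factors, TEAD1 to TEAD4. Vestigial-like (VGLL) proteins bind TEADs as well, and VGLL4 competes with YAP1 for them. Genes such as Ccn1, Ccn2 and Ankrd1 are widely used as readouts of this machinery. Whether they report it in pericytes, the mural cells of capillaries, was not tested here. The 9 genes described here are Yap1, Wwtr1, Tead1, Tead2, Tead3, Tead4, Vgll2, Vgll3 and Vgll4. They were chosen by name, through the match of Ensembl identifiers to GENCODE M21 symbols, and all 9 were among the 21603 genes of the processed files.

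The study asked what pericytes contribute to alveolar development and which genes depend on YAP1 and TAZ in them. Ribosome-bound RNA was recovered with an anti-HA antibody from whole P8 lungs of C57BL/6 mice, through the RiboTag allele of Rpl22, and sequenced for 3 control and 3 Yap1,Wwtr1 iPCKO samples. All 6 samples carried Pdgfrb(BAC)-CreERT2, which recombines in pericytes after tamoxifen, and tamoxifen was given on P0 to P2. The iPCKO mice had both alleles of Yap1 and of Wwtr1 floxed (genotype label Yap1-/-;Wwtr1-/-). The control mice carried 1 floxed and 1 wild-type allele of each gene (Yap1+/-;Wwtr1+/-), so that the controls are recombined heterozygotes and not wild-type animals. The tag marks every cell in which the Pdgfrb transgene was active, and the labels do not give sex or litter. The p-values set the difference between groups against the spread between these samples. Whether sex or litter differed between the groups cannot be told.

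Expression is given as RPKM, the authors' read number scaled to library depth and exon length. Library depth, worked out from the spacing of low values, was 14.26 to 39.64 M reads, and the 2 groups overlapped in depth. Samples of the same group correlated at r = 0.977 to 0.992 over all tested genes and samples of different groups at 0.929 to 0.962. Pericyte markers were abundant in every sample, with a summed level over 10 genes of 3816 to 4865 RPKM in controls and 3252 to 4026 RPKM in iPCKO samples. Over all genes tested, 2.68% were called lower and 4.11% higher by the rule given with the results. Of these 10 pericyte markers, 3 (Rgs5, Notch3 and Mcam) were lower and 3 (Cspg4, Kcnj8 and Abcc9) higher in iPCKO samples. Markers of other cells moved with the group. The summed level of 10 neutrophil genes was 87.1 to 129 RPKM in controls and 449 to 4949 RPKM in iPCKO samples, that of 10 leukocyte genes was 56.6 to 77.9 against 141 to 241 RPKM, and that of 9 epithelial genes was 529 to 619 against 796 to 838 RPKM. Of the tested genes in these lists, 6 of 10 neutrophil, 6 of 8 leukocyte and 2 of 8 epithelial genes were called higher and 0 lower, and none of the listed genes was at 0 in all samples. Of 7 smooth muscle genes, Actg2 and Cnn1 were called higher (log2 fold change 1.59 and 1.11) and Lmod1 lower (-0.97), of 9 endothelial genes Kdr and Vwf were called higher (0.77 and 0.72), and of 9 fibroblast and 7 erythroid genes limma called 0. Of these, 4 and 0 had an unadjusted p below 0.05, and voom called 0 of the 6 and 7 with recovered reads. Fibroblast genes summed to 1310 to 1628 RPKM in controls and 1184 to 1745 RPKM in iPCKO samples, smooth muscle genes to 1309 to 1487 against 1431 to 1570, endothelial genes to 147 to 158 against 156 to 168 and erythroid genes to 2222 to 2783 against 1370 to 6027 RPKM. The part of these cells in the results below was not tested.

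Of the 9 genes, Yap1 and Vgll3 were lower in iPCKO samples, at 45.4% and 49.3% of the control mean. Tead1 was lower in each iPCKO sample than in any control but did not pass the threshold. Wwtr1, Tead2, Tead3, Tead4 and Vgll4 did not pass the test, and Vgll2 was listed at 0 in all 6 samples. The test was limma on log2(RPKM + 0.1) over the 12034 genes that reached 1 RPKM in at least 3 samples, and a gene was called when its Benjamini-Hochberg adjusted p was below 0.01 and it had moved by more than 0.5 on the log2 scale. Of the 9 genes, 8 passed the filter on low values. Of these 8, 2 were called, both lower, against 6.79% of all genes tested called in either direction, 2.68% called lower and 4.11% called higher. Groups did not overlap for 3 of the 8, all lower, against 35.5% of all genes tested (17.1% lower, 18.3% higher). Yap1 is in both counts. It was itself a target of the deletion, so its lower level is no separate finding about the family. Wwtr1 was a target as well and was not called. Besides Yap1, only Vgll3 was called, and only Vgll3 and Tead1 had groups that did not overlap. In RNA pooled from many cells, fewer expressing cells and less RNA per cell cannot be told apart.

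**Figure D1:**
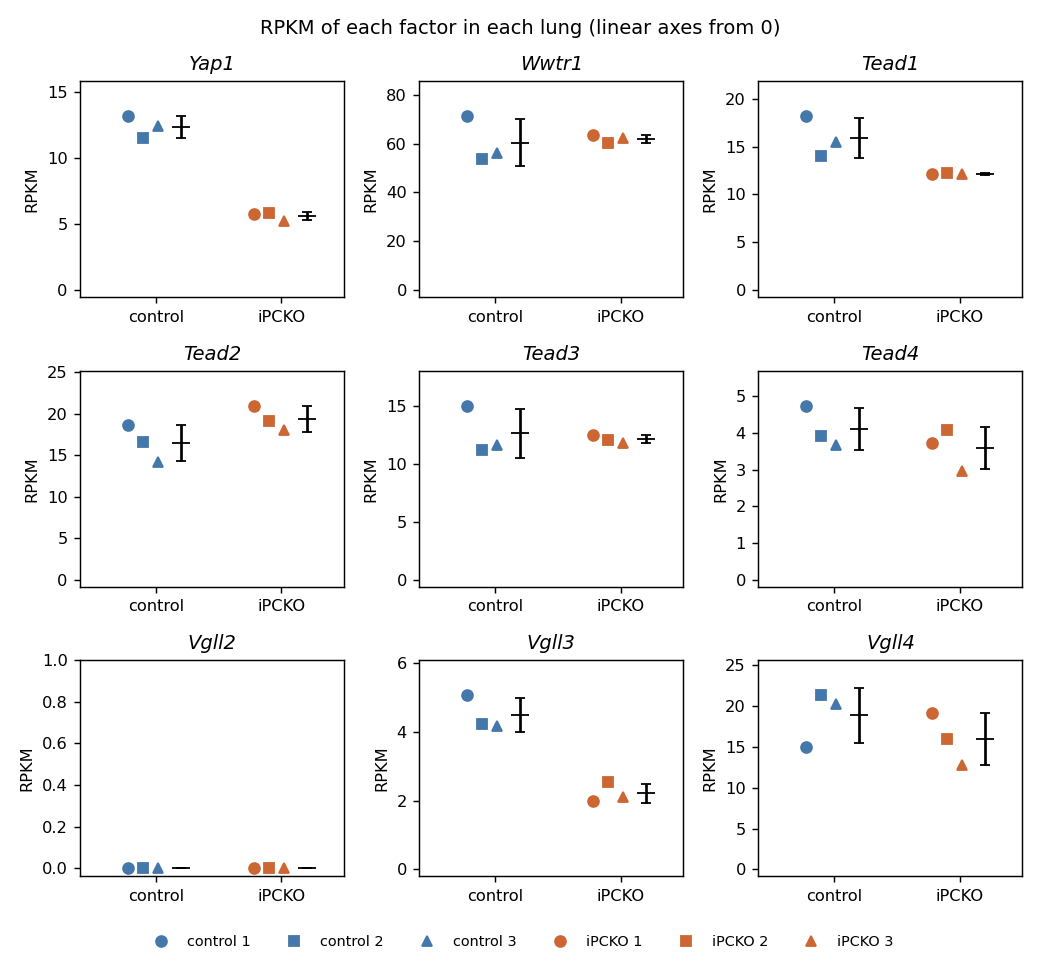
RPKM (y axis, linear, from 0) of each of the 9 genes in each sample, controls in blue and iPCKO samples in orange, with symbols for the replicate number and black bars for the mean ± SD of 3 samples. Yap1, Vgll3 and Tead1 show no overlap between groups, Wwtr1 overlaps fully and Vgll2 lies at 0.

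The promoters of the 2 called genes are shown because TEADs bind the motif CATTCC, which reads as GGAATG on the other strand. The windows are the 250 bases before the annotated start in RefSeq (GRCm38.p6), read 5′ to 3′ on the strand of the gene, with the motif in capitals. That of Yap1 is chr9:8004597-8004846 on the minus strand and that of Vgll3 is chr16:65814939-65815188 on the plus strand.
Yap1: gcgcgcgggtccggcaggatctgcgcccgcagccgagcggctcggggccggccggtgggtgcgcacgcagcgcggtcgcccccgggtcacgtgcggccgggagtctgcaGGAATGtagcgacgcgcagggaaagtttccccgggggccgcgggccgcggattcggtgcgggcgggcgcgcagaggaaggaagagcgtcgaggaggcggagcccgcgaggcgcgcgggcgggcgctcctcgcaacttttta
Vgll3: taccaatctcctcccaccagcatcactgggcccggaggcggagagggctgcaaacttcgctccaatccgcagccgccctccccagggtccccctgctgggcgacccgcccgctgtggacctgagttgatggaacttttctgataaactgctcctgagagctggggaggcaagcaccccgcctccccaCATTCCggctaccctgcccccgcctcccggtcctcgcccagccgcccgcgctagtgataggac
The first base of the motif lay 141 bases before the start of Yap1 and 63 bases before that of Vgll3. Of the 9 genes, 7 had a window (Tead1 and Tead4 had no entry), and the motif stood in at least 1 window of 5 of these 7, in Yap1, Wwtr1, Vgll3, Vgll4 and Tead3. Of 27025 genes with a window, 14.4% held it. These are letter matches and give no binding, and both genes called and genes not called held the motif.

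The 2 coactivators carried the floxed alleles and were examined first. Yap1 (ENSMUSG00000053110, chr9:7931999-8004596 of GRCm38, minus strand) was at 13.2, 11.5 and 12.4 RPKM in controls 1 to 3 and at 5.76, 5.83 and 5.25 RPKM in iPCKO samples 1 to 3. Every iPCKO sample lay below every control. The means were 12.4 ± 0.859 and 5.61 ± 0.314 RPKM (SD, n = 3), a log2 fold change of -1.12 (SE 0.09, 95% interval -1.34 to -0.91, limma adjusted p = 0.000175). Between 693 and 3968 reads lay behind each of these values, so that counting error was at most 3.8%.

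Wwtr1 (ENSMUSG00000027803, chr3:57455649-57575910, minus strand) stood at 71.3, 53.8 and 56.1 RPKM in controls and at 63.5, 60.3 and 62.2 RPKM in iPCKO samples. All 3 iPCKO values fell inside the range of the controls. The log2 fold change was 0.05 (SE 0.12, interval -0.22 to 0.31, limma adjusted p = 0.822), from 4236 to 11417 reads per sample. It took the opposite sign, -0.03, without control replicate 2. Each gene has 1 value, in which the floxed exons cannot be told apart from the others. The level of Wwtr1 therefore does not check the label, whereas that of Yap1 differed in the direction of the label. By western blot, the study found much less YAP1 and TAZ protein in whole double-mutant lungs than in littermate controls, at a later age. That is another measure in other mice than the RNA levels given here.

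Ribosome-bound RNA of both coactivators was found in the same samples at unequal levels. The ratio of Wwtr1 to Yap1 RPKM was 5.39, 4.68 and 4.54 in controls and 11, 10.3 and 11.8 in iPCKO samples, means of 4.87 ± 0.457 and 11.1 ± 0.749 (SD, n = 3). The log2 difference of 1.19 had an exact two-sided permutation p of 0.1, the smallest that 3 samples against 3 allow. It restates the lower level of Yap1, a target of the deletion, beside a Wwtr1 level that overlapped between groups, and is no separate result. Yap1 made up 17.1% ± 1.28 of the summed Yap1 and Wwtr1 RPKM in controls and 8.3% ± 0.514 in iPCKO samples. The sum of both was 72.7 ± 10.3 RPKM in controls and 67.6 ± 1.59 RPKM in iPCKO samples, and the groups overlapped. Ratios of this kind compare levels per exon length, and the exon lengths recovered from the values were 9257 bases for Yap1 and 4779 bases for Wwtr1.

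The TEADs are the DNA-binding partners, and all 4 were detected. Tead1 (ENSMUSG00000055320, chr7:112679318-112906807, plus strand) was at 18.2, 14 and 15.5 RPKM in controls and at 12.1, 12.2 and 12.1 RPKM in iPCKO samples. The iPCKO samples lay below all controls and hardly differed from each other. Their SD was 0.489% of the mean, less than the counting error of 1.29 to 2.27% across samples. This closeness is therefore not read as a trait of the group. The means were 15.9 ± 2.13 and 12.1 ± 0.0592 RPKM (SD, n = 3), a log2 fold change of -0.38 (SE 0.11, interval -0.62 to -0.14, limma adjusted p = 0.0445). This passed neither threshold, and Tead1 was called in none of the alternatives, whose adjusted p ranged from 0.0336 to 0.122.

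Tead2 (ENSMUSG00000030796, chr7:45215753-45233644, plus strand) went the other way, at 18.6, 16.6 and 14.2 RPKM in controls and 21, 19.1 and 18 RPKM in iPCKO samples. The groups overlapped, as the lowest iPCKO value lay below the highest control. The log2 fold change was 0.24 (interval -0.03 to 0.5, limma adjusted p = 0.213), and 0.14 without control 3. Exons of Tead2 overlap those of Cd37 on the other strand by 13 bases, and whether the counting used strand is not given in the sources used here.

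Tead3 (ENSMUSG00000002249, chr17:28331671-28350817, minus strand) was at 15.0, 11.2 and 11.6 RPKM in controls and 12.5, 12 and 11.8 RPKM in the iPCKO group. The log2 fold change of Tead3 was -0.04 (interval -0.31 to 0.22, limma adjusted p = 0.839), and it took the opposite sign, 0.09, without control replicate 1. Tead4 (ENSMUSG00000030353, chr6:128224288-128300823, minus strand) was the lowest TEAD, at 4.74, 3.92 and 3.66 RPKM in controls and 3.72, 4.08 and 2.95 RPKM in iPCKO samples. The groups overlapped for both genes. For Tead4 the log2 fold change was -0.2 (interval -0.54 to 0.15, limma adjusted p = 0.43), and only 151 to 582 reads lay behind its values, with counting error of up to 8.14%. Its fold change was -0.09 without control 1, -0.3 without iPCKO 2 and -0.07 without iPCKO 3.

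**Figure D2:**
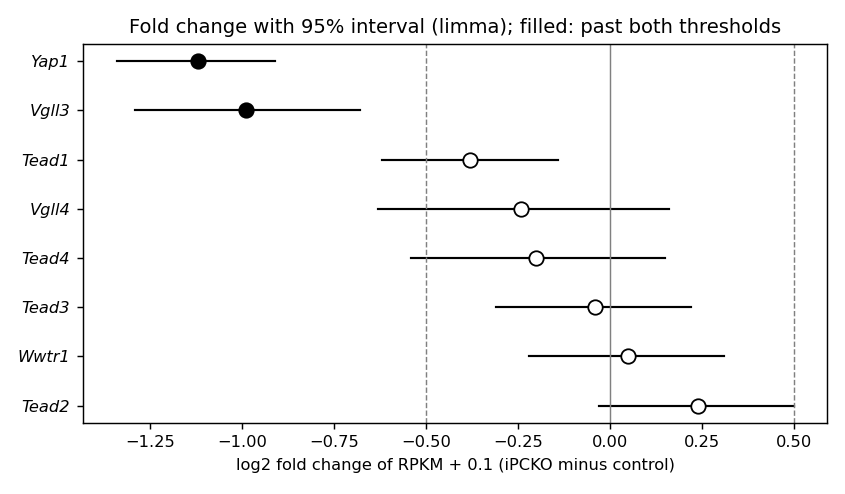
Log2 fold change of RPKM + 0.1 between iPCKO and control (x axis) for the 8 genes that passed the filter, with bars for limma's 95% interval, dashed lines at the 0.5 threshold and filled symbols for the genes called. The intervals of Yap1 (-1.34 to -0.91) and Vgll3 (-1.29 to -0.68) lie beyond the dashed line and that of Tead1 (-0.62 to -0.14) crosses it.

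Within each sample, the TEADs can be set against each other as shares of their summed RPKM. Tead1 made up 32.2, 30.6 and 34.5% in controls and 24.5, 25.7 and 27.0% in iPCKO samples, so that the groups did not overlap. The means were 32.4% ± 1.94 and 25.7% ± 1.29 (SD, n = 3), a difference of -6.67 percentage points with an exact two-sided permutation p of 0.1, the smallest possible here. Tead2 took 33.6% ± 2.38 in controls and 41% ± 1.42 in iPCKO samples, without overlap and with no test, while Tead3 took 25.6% and 25.7% and Tead4 8.37% and 7.58%. The Tead1 to Tead2 ratio was 0.969 ± 0.123 in controls and 0.629 ± 0.0511 in iPCKO samples. Shares of a fixed whole depend on each other, and this ratio is taken from the same values. They are not separate results from the levels of Tead1 and Tead2 given above. The summed TEAD level was 49.1 ± 6.48 RPKM in controls and 47.2 ± 2.22 RPKM in iPCKO samples, a log2 difference of -0.05 (exact permutation p = 0.8). Set against this sum, Yap1 and Wwtr1 together amounted to 1.48 ± 0.0477 in controls and 1.43 ± 0.0595 in iPCKO samples.

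**Figure D3:**
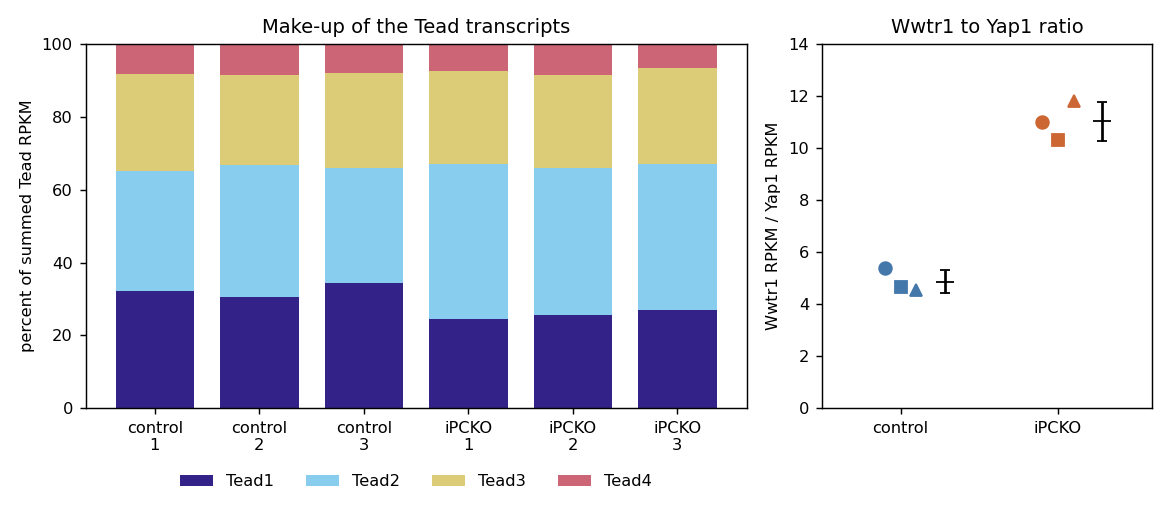
Left, percent of the summed RPKM of Tead1 to Tead4 taken by each gene in each of the 6 samples. Right, ratio of Wwtr1 to Yap1 RPKM in each sample, with black bars for the mean ± SD of 3 samples. The Tead1 share was 30.6 to 34.5% in controls and 24.5 to 27.0% in iPCKO samples, and the ratio was 4.54 to 5.39 and 10.3 to 11.8.

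The VGLL genes encode cofactors that bind TEADs in place of YAP1 and TAZ. Vgll3 (ENSMUSG00000091243, chr16:65815257-65866368, plus strand) was at 5.07, 4.23 and 4.17 RPKM in controls and 2.0, 2.53 and 2.11 RPKM in iPCKO samples. The groups did not overlap, and the means were 4.49 ± 0.503 and 2.22 ± 0.277 RPKM (SD, n = 3). The log2 fold change was -0.99 (SE 0.13, interval -1.29 to -0.68, limma adjusted p = 0.00183). It rested on 100 to 481 reads per sample, the fewest of the 8 genes detected, and had the largest counting error. It was called under all 13 alternatives that kept the thresholds, with an adjusted p of at most 0.00848.

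Vgll4 (ENSMUSG00000030315, chr6:114860628-114969994, minus strand) was at 15.0, 21.3 and 20.2 RPKM in controls and at 19.1, 16.0 and 12.8 RPKM in iPCKO samples. The groups overlapped, with a log2 fold change of -0.24 (interval -0.63 to 0.16, limma adjusted p = 0.4). It was -0.4 without control 1, -0.38 without iPCKO 1, -0.14 without control 2 and -0.09 without iPCKO 3. The ratio of Vgll4 to Vgll3 was 4.28 ± 1.15 in controls and 7.3 ± 1.93 in iPCKO samples. It contains the lower level of Vgll3 and is no separate result. Vgll2 (ENSMUSG00000049641, chr10:52022502-52028471, plus strand) had no reads in any sample. A count of 3 reads over its 1650 annotated exon bases would have been 0.0459 RPKM in the deepest and 0.128 RPKM in the shallowest sample, a limit that covers counting error only.

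Ordered by mean level per exon length, the controls gave Wwtr1, Vgll4, Tead2, Tead1, Tead3, Yap1, Vgll3 and Tead4. Wwtr1 ranked at position 696 among all 21603 genes, Yap1 at 4564. Only the steps from Wwtr1 to Vgll4 and from Yap1 to Vgll3 had ranges that did not overlap between neighbours. In iPCKO samples the order was Wwtr1, Tead2, Vgll4, Tead1, Tead3, Yap1, Tead4 and Vgll3. There, Tead2 and Vgll4 overlapped, as did Tead1 and Tead3, and all other neighbours were apart. Vgll3 and Tead4, and Vgll4 and Tead2, thus stood in the opposite order, with ranges that overlapped in controls for both pairs. The exon lengths behind these levels were shorter than those of GENCODE M21 for 6 of the 8 genes (3322 against 7104 bases for Vgll3). Length scales the level alike in every sample. Whether reads outside the shorter lengths would alter the fold changes was not tested.

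By likeness of pattern, measured as Pearson's r of log2(RPKM + 0.1) over the 6 samples, the genes closest to Yap1 were Adcy3 (r = 0.999), Cryab (0.999) and Tns3 (0.998). In all, 422 of 12033 genes reached r = 0.95 with Yap1. The closest to Vgll3 were 9930111J21Rik1 (1.0), Lpgat1 (0.999) and Mfhas1 (0.997), and 244 genes reached 0.95. For the other 6 members, between 20 (Tead4) and 128 (Tead1) genes reached 0.95. The 6 points fall into 2 groups and share their libraries, so that a shared difference between the groups raises r.

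Among 22 transcripts that are widely used as readouts of YAP/TAZ-TEAD activity, all tested, 3 were called lower and 0 higher in iPCKO samples, where 2.68% of all genes tested were called lower and 4.11% higher. The median log2 fold change was -0.28 against -0.0 over all genes. The list was chosen with earlier results of these data known, and the study itself reported lower Tgfb2 in this comparison, so these counts are not independent of them. Tgfb2, a TGF-beta ligand, was at 49.5, 45.9 and 49.3 RPKM in controls and 12.4, 14.8 and 13.1 RPKM in iPCKO samples (log2 fold change -1.84, limma adjusted p = 1.83e-05). Lats2, a kinase that phosphorylates YAP1 and TAZ, was at 50.5, 44.0 and 49.5 against 21.8, 19.4 and 16.8 RPKM (-1.31, adjusted p = 0.000199). Amotl2, an angiomotin that binds YAP1, was at 29, 34.2 and 32.1 against 20.1, 19.5 and 17.3 RPKM (-0.74, adjusted p = 0.00162). None of these groups overlapped, and 8 of the 22 were lower and 3 higher without overlap, where all genes tested gave 17.1% lower and 18.3% higher.

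Of the matricellular readouts, Ccn1 was at 23.1, 77.5 and 91.9 RPKM in controls and 32.8, 40.0 and 25.5 RPKM in iPCKO samples, and its fold change of -0.76 did not pass the test (limma adjusted p = 0.301). Ccn2 was at 50, 94.1 and 114 against 45.9, 61.6 and 39.4 RPKM (-0.76, adjusted p = 0.118). Control 1 was the lowest control for both, and both values depended on single controls. For Ccn1 the fold change was -1.39 without control 1 (limma adjusted p = 0.00546, called), -0.51 without control 2 and -0.39 without control 3 (adjusted p = 0.589 and 0.671). For Ccn2 it was -1.11 without control 1, -0.65 without control 2 and -0.51 without control 3 (limma adjusted p = 0.0127, 0.28 and 0.338). Ankrd1, a cardiac ankyrin repeat protein, was at 1.09 to 1.88 RPKM in controls and 1.12 to 1.47 RPKM in iPCKO samples (-0.16, adjusted p = 0.656).

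Of 20 Hippo kinases, adaptors and upstream regulators, all tested, 3 were called lower and 0 higher (2.68% and 4.11% of all genes tested), with a median of -0.17. Without overlap, 11 were lower and 0 higher, against 17.1% and 18.3% of all genes. Lats2, Amotl2 and Ptpn14 are also among the readouts and are counted as lower without overlap in both lists. Besides Lats2 and Amotl2, which are in both lists, Frmd6, a FERM domain adaptor, was at 36.3, 31.1 and 36.2 RPKM in controls and 24.4, 25.4 and 21.5 RPKM in iPCKO samples (-0.54, limma adjusted p = 0.00891). It lost its call in 9 of 13 alternatives. Without control 3, only 1 of the 20 was called. Of 14 genes for 14-3-3 proteins, casein kinases, ligase subunits and kinases that act on YAP1 or TAZ, limma called 0, with a median of -0.04, while 2 had an unadjusted p below 0.05 and voom on the recovered reads called 0.

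Of 24 other partners and coactivators, 17 were tested, and 0 were called lower and 3 higher (2.68% and 4.11% of all genes tested), with a median of 0.07. Without overlap, 5 were lower and 6 higher, against 17.1% and 18.3% of all genes. Runx1, a runt-domain factor, was at 6.87, 6.24 and 5.71 RPKM in controls and 13.1, 15.1 and 12.7 RPKM in iPCKO samples (log2 fold change 1.11, limma adjusted p = 0.000354). Junb, an AP-1 subunit, was at 13.0, 16.4 and 14.9 against 28.5, 34.1 and 26.5 RPKM (1.0, adjusted p = 0.00117). Fosb, its AP-1 partner, was at 0.365, 0.596 and 0.715 against 2.01, 1.98 and 1.22 RPKM (1.49, adjusted p = 0.00871) and lost its call in 7 of 13 alternatives. These 3 shared their direction between groups with the leukocyte and neutrophil markers given above. Among iPCKO samples, the 3 were lowest in sample 3, where each listed neutrophil gene was highest. S100a8, for example, was at 156, 727 and 1726 RPKM in iPCKO samples 1 to 3. The part of leukocytes and neutrophils in the 3 genes was not tested.

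**Figure D4:**
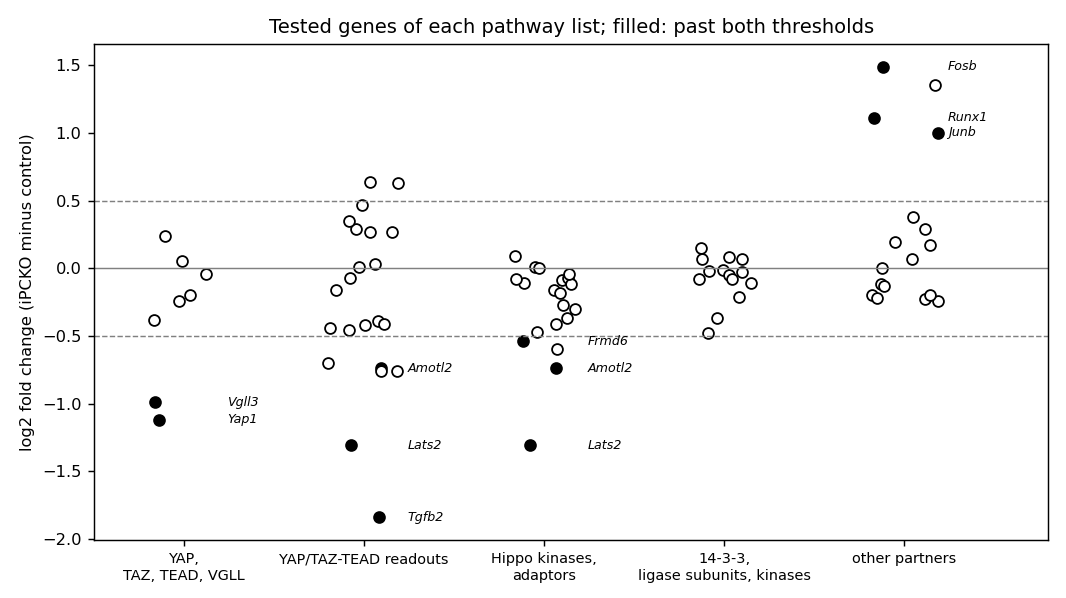
Log2 fold change (y axis, iPCKO minus control) of each tested gene in the 5 lists along the x axis, with dashed lines at ±0.5 and filled, named symbols for genes called. The called genes are lower in the first 3 lists and higher among the other partners.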

How the data were processed

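Per the labels and methods, the authors made stranded libraries from 100 ng RNA, mapped reads to mm10 with TopHat, counted genes with HTSeq 0.6.1 and tested with DESeq2. The authors deposited RPKM per Ensembl gene for each of the 6 samples. Symbols came from GENCODE M21. Depth and whole reads were recovered from the values (tolerance 0.01 reads) for 99.8% of tested genes. RPKM were not rescaled. Genes of at least 1 RPKM in 3 samples were tested with limma 3.58.1 (R 4.3.3) on log2(RPKM + 0.1), with eBayes set to follow intensity and p-values adjusted by Benjamini-Hochberg over all 12034 genes. The thresholds are those of the study. Single ratios and shares used exact permutation tests. Figures and tables used Python 3.11.15. When tested on data made with known changes, the fit gave more false calls than the nominal rate and exceeded the first limit set on them, which was then replaced by a looser one. Most false calls were of genes with a mean under 100 reads, and the called members had at least 100 reads in every sample. This does not clear Vgll3, which had 100 to 481 reads. The made data also gave every gene the same spread beyond counting error, unlike the real samples. The members and lists were chosen with earlier results of these data known. Named genes are all 9 members, the largest called changes of each list, Ccn1, Ccn2 and Ankrd1, and the 3 genes most like each called member. Alternatives were a replicate block, pseudocounts of 1 and 0.01, no filter, median-ratio scaling, no trend, each sample left out, an adjusted p of 0.05 and a log2 fold change of 1. Voom on recovered reads was added after seeing the data.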

Additional observations from a re-analysis of the deposited data

How the results depend on the processing

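Yap1 and Vgll3 were called in all 13 alternatives that kept the thresholds. Leaving out each sample, all tested genes gave 382 to 899 calls (382 without control 3, 414 without iPCKO 2, 499 without iPCKO 3), the 9 factors 2, the readouts 2 to 4 and the Hippo kinases 1 to 2 (1 without control 3). With an adjusted p of 0.05, all genes gave 1313 calls and the readouts 6. With a log2 fold change above 1, all genes gave 411, the factors 1 and the kinases 1. Without 1 sample, Wwtr1 ranged from -0.03 to 0.17, Tead3 from -0.12 to 0.09, Ankrd1 from -0.35 to 0.01 and the TEAD sum from -0.11 to 0.06, each reversed in 1 case. Tead2 ranged from 0.14 to 0.33, Tead4 from -0.3 to -0.07, Vgll4 from -0.4 to -0.09, Ccn1 from -1.39 to -0.39 and Ccn2 from -1.11 to -0.51. Same-numbered samples deviated together with r = 0.238, 0.092 and 0.022, and differently numbered ones with r from -0.298 to 0.273. With 3 samples per group and no litter in the labels, these values cannot tell whether the numbers pair the samples. With the replicate block the readouts gave 5 calls and all genes 922. The cause of these changes was not tested.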
